A study of Mus musculus with 8 samples.

Results

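The comparison described here is that of 5-aza with no treatment in hair matrix keratinocytes lacking Tet2 and Tet3. Its members are the genes that carry values in both deposited tables, by gene identifier, outside the mitochondrial genome. They number 26200 of the 32693 genes with values in either table, and 16587 of them are annotated as protein-coding. The double-knockout (DKO) mice carried deletions of Tet2 and Tet3 driven by Krt14-Cre, which acts in keratinocytes of the basal layer and in the cells that descend from them, the hair matrix included. Untreated DKO skin was harvested at postnatal day 4.5. The DKO 5-aza group received 50 µg of 5-aza under the skin at postnatal day 2.5 and was harvested at the same age. Wild-type (WT) mice, untreated or given the same injection, are used beside them. Each of the 4 groups had 2 libraries of cells sorted from skin, and the labels name no vehicle group. The sources used here do not give the animals behind each library, so how much of the spread between libraries is technical is not known. The untreated replicates of each genotype differed in Xist and Y-linked genes, as given below, so they were not repeats of the same RNA sample.

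The hair matrix is the pool of dividing epithelial cells around the dermal papilla at the base of the follicle. Its descendants build the inner root sheath, a casing marked by the keratins Krt25 to Krt28 and Krt71, and the hair shaft, made of hair keratins cross-linked with keratin-associated proteins. TET enzymes oxidise 5-methylcytosine and so open a way to its removal, and 5-aza, a cytidine analogue built into nucleic acids, traps DNA methyltransferases so that methylation is lost as cells divide. The genes best known to respond to such loss are germline genes silenced in somatic cells by promoter methylation, and interferon-stimulated genes, which in many cells follow the release of silenced repeats.

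Promoters are shown first for 2 germline and 2 interferon-stimulated genes with large shifts in DKO, since the density of CG dinucleotides and the interferon response element are the sequence features these groups are known for. Each window runs from 250 bases before to 50 bases after the RefSeq start, 5′ to 3′ on the gene's strand, in the build GRCm38.p6. In the germline pair, capitals mark CG dinucleotides. The windows lie at chr6:145615713-145616012 on the plus strand (Tuba3b) and chr8:105979370-105979669 on the minus strand (Dpep3).
Tuba3b: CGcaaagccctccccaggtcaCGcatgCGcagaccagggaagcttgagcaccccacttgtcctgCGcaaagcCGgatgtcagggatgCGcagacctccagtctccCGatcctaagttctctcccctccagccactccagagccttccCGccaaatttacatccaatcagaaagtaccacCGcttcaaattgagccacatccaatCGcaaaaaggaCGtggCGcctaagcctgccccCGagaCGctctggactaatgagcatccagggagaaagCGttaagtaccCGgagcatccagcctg
Dpep3: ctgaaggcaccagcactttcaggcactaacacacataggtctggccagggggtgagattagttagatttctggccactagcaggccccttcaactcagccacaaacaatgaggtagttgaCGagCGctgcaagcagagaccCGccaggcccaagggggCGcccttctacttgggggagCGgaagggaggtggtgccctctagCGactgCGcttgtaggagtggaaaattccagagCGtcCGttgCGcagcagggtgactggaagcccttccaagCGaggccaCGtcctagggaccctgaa

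The Tuba3b window held 16 CG dinucleotides and the Dpep3 window 12. The median over the promoters of 11402 genes tested was 20, and 35.2% and 24.7% of those promoters held fewer than the respective window. Neither is therefore especially rich in CG. In the interferon pair, capitals mark the letters GAAANNGAAA, searched on both strands with overlapping matches counted, which form the core of the element bound by interferon-activated factors. The windows lie at chr4:156200769-156201068 on the minus strand (Isg15) and chr19:34583279-34583578 on the plus strand (Ifit3).
Isg15: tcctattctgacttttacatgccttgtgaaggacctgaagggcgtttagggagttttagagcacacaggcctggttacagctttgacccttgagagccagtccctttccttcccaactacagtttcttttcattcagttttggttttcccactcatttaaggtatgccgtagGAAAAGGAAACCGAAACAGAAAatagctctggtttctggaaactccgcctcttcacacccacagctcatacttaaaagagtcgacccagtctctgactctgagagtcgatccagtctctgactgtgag
Ifit3: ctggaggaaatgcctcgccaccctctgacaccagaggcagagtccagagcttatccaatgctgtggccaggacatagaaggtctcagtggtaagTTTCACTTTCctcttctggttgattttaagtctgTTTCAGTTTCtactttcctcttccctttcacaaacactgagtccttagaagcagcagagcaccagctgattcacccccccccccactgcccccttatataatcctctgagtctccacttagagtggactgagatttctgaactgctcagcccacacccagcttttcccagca

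The Isg15 window held 3 overlapping matches and the Ifit3 window 2. Of the 7 interferon-stimulated genes shifted up in DKO, 5 had a promoter in the table and 4 of these held the motif, as did 8 of 15 other tested members of the list. The motif stood in 2.82% of the 11402 promoters of tested genes and in 3.44% of all 32851 promoters. A match describes the letters of the window and does not show a bound site.

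Values are FPKM (reads scaled to the length of the gene and the total of the library), rescaled so that the shared genes of each library sum to 1000000. A shift is the difference of the group means of log2(value + 1), 5-aza minus untreated, a scale that understates the change of low genes. A gene was counted as shifted when the difference was at least 2 (4-fold) and the libraries of the groups did not overlap, among genes with a value of at least 1 in at least 2 of the 4 libraries. The untreated and 5-aza libraries stand in tables that were processed separately, so 5-aza cannot be told apart from the table, and no test was made across them. The tables also differed in the part of the reads that fell in listed genes. In DKO replicate 1 the library total behind the FPKM was 22209751 reads, beside 13372334 in listed genes. In DKO 5-aza replicate 1 the total was 39493929, beside 16744915 in listed genes. The reads behind the shared genes numbered 11816735 to 14122102 per untreated library and 16411621 to 23230877 per 5-aza library. A value of 1 corresponds to 1.89 to 2.18 reads per kilobase in the former and 2.63 to 3.68 in the latter.

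Of 20063 genes tested in DKO, 312 were shifted up (1.56%) and 1239 were shifted down (6.18%). Among 13670 protein-coding genes, 91 were shifted up (0.666%) and 349 down (2.55%). The count of genes shifted down was 817 without DKO replicate 2. With FPKM as deposited, which moved the median shift of all tested genes from -0.03 to -0.40, 20 genes were shifted up and 380 down, so that higher genes made up 5.00% of the shifted genes instead of 20.1%. Without processed pseudogenes and genes overlapping a gene listed in 1 table alone, a choice made after seeing the data, 258 were shifted up and 447 down, and higher genes made up 36.6%. Within a group, 481 of the tested genes (2.40%) differed at least 4-fold between the untreated DKO libraries and 321 (1.60%) between the DKO 5-aza libraries, most of them not protein-coding, where the numbers were 19 and 54. In WT, which crosses the same tables, 269 of 20068 genes were shifted up (1.34%) and 1240 down (6.18%).

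The DKO shift was close to the WT shift for most genes, and less often so for the genes that were shifted in DKO. Across the tested genes, which are not independent replicates, Pearson's r between the shifts was 0.848, and 0.883 over protein-coding genes. This is a description of 2 comparisons that cross the same pair of tables. Of the protein-coding genes shifted up in DKO, 58 (63.7%) were also shifted up in WT, and the WT shift lay within 1 of the DKO shift on the log2 scale in 78 (85.7%). Of those shifted down, 213 (61.0%) were shifted down in WT as well, and 273 (78.2%) lay within 1 of the WT value. Over all 13670 protein-coding genes tested, most of which hardly moved, 97.5% lay within 1 of the WT value and 1.98% were shifted in the same direction in both genotypes. The plot of both shifts shows where hair genes leave this diagonal.

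**Figure D1:**
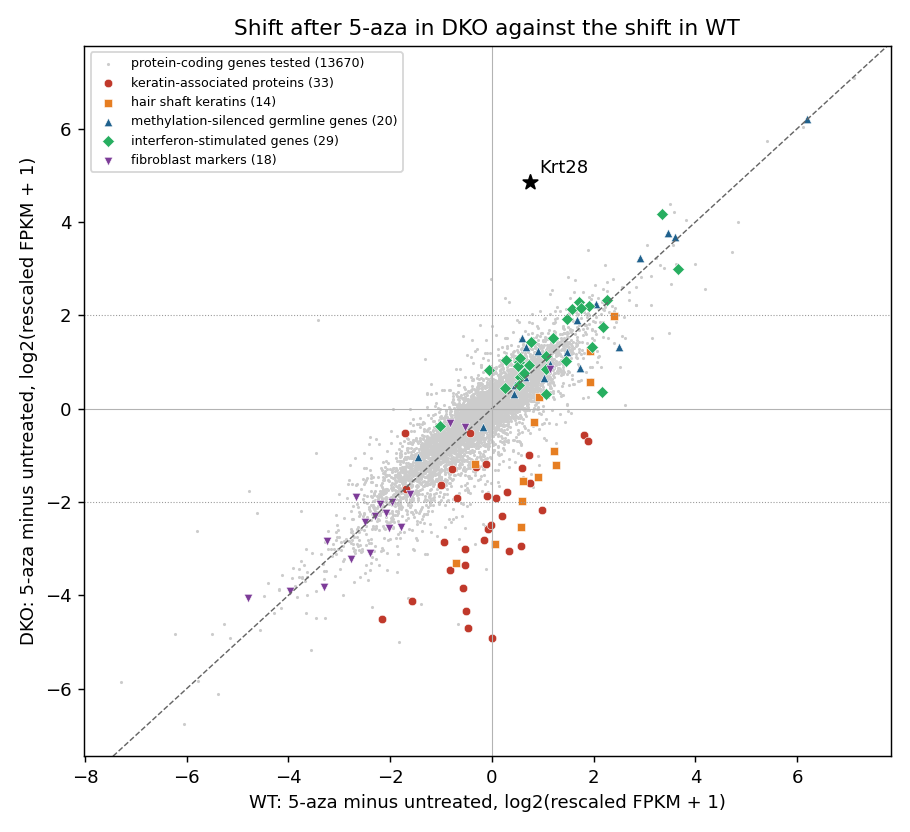
Each point is a gene, with the shift in WT on the x axis and the shift in DKO on the y axis (5-aza minus untreated, log2 of rescaled FPKM + 1, means of 2 libraries), the dashed line marks equal shifts and the dotted lines a shift of 2. Germline, interferon-stimulated and fibroblast genes lie near the line, keratin-associated proteins and hair shaft keratins lie below it, and Krt28 lies above it at 0.75 and 4.86.

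Germline genes gave some of the largest gains. Tuba3b, a tubulin of the testis, had 0 reads in both untreated DKO libraries and values of 72.5 and 74.1 after 5-aza, which is at least 86.6-fold higher against a floor of 3 reads per library. Its WT values were 0.581 and 0 without and 99.4 and 83.8 with 5-aza. The gain was thus of like size in both genotypes, and the groups did not overlap in either. Tuba3b has a near-identical copy in Tuba3a, and reads may be split between them. Dpep3, a membrane dipeptidase of the testis, went from 0.278 and 0, of which 1 read was the whole evidence, to 15.8 and 12.9, a shift of 3.76. Rhox5, an X-linked homeobox gene of the germline, went from 0.34 and 0 to 11.6 and 16.2, a shift of 3.67. Piwil2, which encodes a protein that binds small RNAs against transposons, stood at 1.51 and 1.63 in untreated DKO and at 23.3 and 22.5 after 5-aza, 14.6-fold higher. All 4 were near or at 0 before and well above it afterwards, in both libraries.

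Piwil2 was the member whose levels differed most between genotypes. In WT it stood at 7.74 and 13.2 without and at 73.9 and 93.3 with 5-aza, above the DKO libraries of the same table in each case. Its shift in DKO exceeded that in WT by 0.30 ± 0.34 (SE) on the log2 scale, which is not beyond the spread, and the sign of this difference turned with the pseudocount. The fifth gene of the list shifted up was Tex101, a surface protein of germ cells, at 0 in both untreated DKO libraries and 5.12 and 2.70 after 5-aza. Of 51 genes on the list, 35 were shared by the tables and 20 passed the filter on low values. Of these 20, 5 were shifted up and 0 down, beside 1.56% shifted up over all tested genes. Their median shift was 1.22 in DKO and 1.08 in WT, beside -0.03 over all tested genes. Members near 0 in untreated DKO, such as Tex101, passed only through the 5-aza libraries, which fixed the sign of their shift. Members low in both groups dropped out of the count and the median. All 35 shared members, without the filter, summed to 31.6 and 29.6 in the untreated DKO libraries and to 194 and 190 after 5-aza.

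Other genes of germ cells outside the list had like values and were chosen after these were seen. Tex19.1, which protects germ cells from transposons, went from 0.218 and 1.73 to 14.9 and 20.9, and Gpat2, an acyltransferase tied to the same pathway, from 0.72 and 0 to 20.2 and 21.2. Tex13b, an X-linked gene of spermatogonia, had 0 reads in both untreated DKO libraries and stood at 6.04 and 6.24 after 5-aza, at least 13.9-fold higher against the same floor. Stag3, a cohesin subunit of meiosis, went from 2.49 and 2.87 to 23.7 and 23.9, 8.88-fold higher.

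Interferon-stimulated genes were the second group with gains. Isg15, a ubiquitin-like modifier, stood at 7.46 and 2.11 in untreated DKO, from 12 and 3 reads, and at 80.8 and 103 after 5-aza, 19.2-fold higher. Bst2, or tetherin, which holds budding virus at the cell surface, went from 12.2 and 11.1 to 87.8 and 112, 8.60-fold higher. Usp18, which strips ISG15 from its targets, went from 0.932 and 1.05 to 8.10 and 9.19. Ifit3, which takes part in the binding of viral RNA, went from 0.269 and 0.608 to 2.84 and 12.3, with the DKO 5-aza libraries far apart from each other. The other 3 members shifted up were the oligoadenylate synthetase genes Oas1a, Oas1b and Oasl2.

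Of 36 interferon-stimulated genes, 29 passed the filter, of which 7 were shifted up and 0 down, and 28 had a shift above 0. Over all tested genes, 1.56% were shifted up. Members near 0 in untreated DKO, such as Ifit3, passed only through the 5-aza libraries, which fixed the sign of their shift. The median shift was 1.04 in DKO and 1.07 in WT. The list summed to 119 and 127 in untreated DKO and to 384 and 502 after 5-aza, so that all 4 libraries were separated by group. With FPKM as deposited the median shifts of the interferon-stimulated and germline lists were 0.15 and 0.13, both still above the -0.40 of all genes. Immune markers were lower in the same libraries, with sums of 265 and 307 before and 88.1 and 91.7 after 5-aza.

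Genes of the inner root sheath held the gene with the smallest p for a difference between the DKO and WT shifts. Krt28, a type I keratin of the inner root sheath (chromosome 11, 99364872 to 99374903, minus strand), stood at 20.6 and 29.5 in untreated DKO and at 679 and 812 after 5-aza. The means were 25.0 ± 6.29 and 745 ± 93.9 (SD, n = 2), a 29.8-fold difference. In WT it stood at 827 and 739 without and at 1240 and 1388 with 5-aza. Untreated DKO was thus the 1 group with little Krt28, and the DKO 5-aza libraries lay near the untreated WT libraries and below the WT 5-aza libraries. The difference of the shifts was 4.11 ± 0.256 (SE) on the log2 scale, with an adjusted p of 0.0631 by limma with Benjamini-Hochberg adjustment over 21476 genes. Over the alternatives tried the adjusted p ranged from 0.0128 to 0.992. Here and below, fewer cells of a type and less RNA per cell cannot be told apart in bulk libraries.

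Its neighbours in the same cluster of type I keratin genes moved less. Krt26 went from 1.23 and 3.89 to 19.1 and 24.7 in DKO, 8.56-fold higher, while the WT libraries stayed between 5.57 and 7.96 in both tables. Krt25 went from 232 and 373 to 876 and 1083, 3.24-fold higher and under the threshold of 4-fold. Krt27 had values of 599 and 889 in untreated DKO and 358 and 540 after 5-aza, so that it was higher before. Krt71, the type II partner of these keratins, differed little in DKO, with 1494 and 2243 before and 1864 and 2088 after. In WT it stood at 1038 and 608 and then at 1886 and 2559. Adjacent keratin genes of one sheath thus gave shifts from 4.86 in Krt28 to -0.73 in Krt27.

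Of 18 inner root sheath genes, all of which passed the filter, 3 were shifted up and 2 down, beside 1.56% up and 6.18% down over all tested genes. Their median was 0.49 in DKO and 1.14 in WT (-0.06 in DKO with FPKM as deposited). The third gene shifted up was Padi4, a peptidylarginine deiminase, at 1.97 and 2.88 before and 12.9 and 20.4 after. Those shifted down were Padi1, which encodes another such deiminase, and Cdsn, a desmosomal protein also made in the cornified epidermis, which went from 36.1 and 63.1 to 2.28 and 5.08. Tchh, a structural protein of the sheath and medulla, stood at 187 and 356 before and at 155 and 476 after, with overlapping groups. In WT it was shifted up, from 79.8 and 51.3 to 486 and 329. Gata3, a transcription factor of the sheath, stood at 153 and 152 before and at 320 and 315 after, a 2.08-fold difference under the threshold. Of the 18, 14 had a shift above 0 in DKO and 4 below. The DKO shift lay below the WT shift in 13 and above it in 5, with a median difference of -0.47. By limma, 4 were lower and 2 higher at an unadjusted p under 0.05, and none passed after adjustment.

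**Figure D2:**
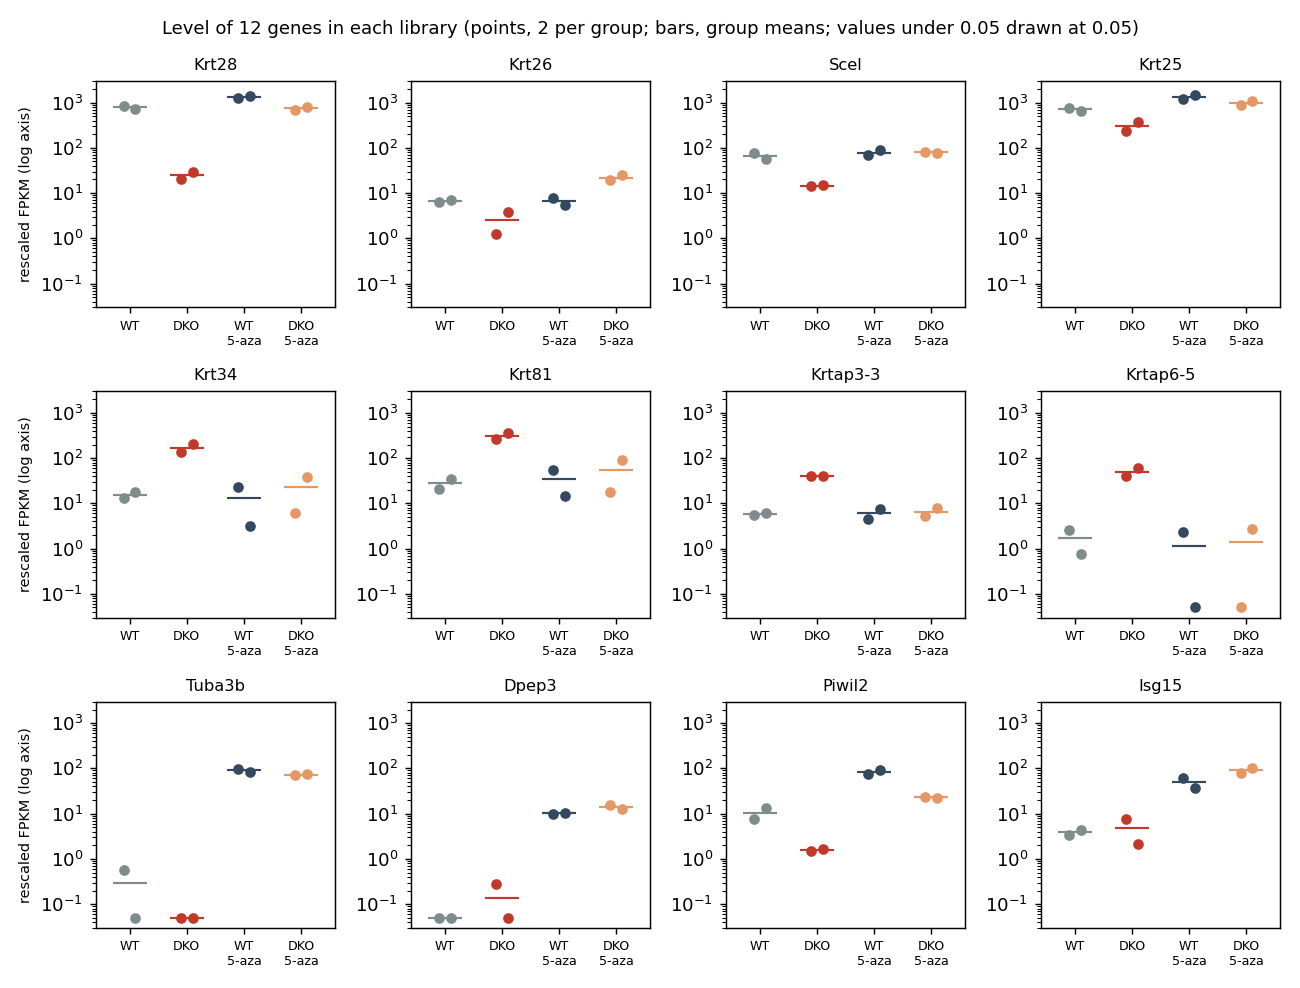
Points are the 2 libraries of each group and bars the group means, in rescaled FPKM on a log axis, for 12 genes named in the text. Krt28 and Scel are low in untreated DKO alone, Krt34, Krt81, Krtap3-3 and Krtap6-5 are high in untreated DKO alone, and Tuba3b, Dpep3, Piwil2 and Isg15 are higher in the 5-aza libraries of both genotypes.

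Hair shaft keratins were lower in the DKO 5-aza libraries than in untreated DKO in most cases. Krt34, a type I hair keratin, stood at 136 and 205 in untreated DKO and at 6.18 and 39.2 after 5-aza, 7.51-fold lower. Krt81, a type II hair keratin, stood at 267 and 360 and then at 17.8 and 90.9, 5.77-fold lower. Krt33b, also of type I, stood at 273 and 362 and then at 25.6 and 112, 4.63-fold lower. In WT the same 3 genes stood between 13.2 and 46.1 without 5-aza and between 3.17 and 84.9 with it, so that untreated DKO was the group with the high values. DKO 5-aza replicate 2 was above replicate 1 for each of them. The groups nevertheless did not overlap within DKO.

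Of 14 hair shaft keratins that passed the filter, 3 were shifted down and 0 up, beside 6.18% down and 1.56% up over all tested genes. The median shift was -1.20 in DKO and 0.87 in WT, and the DKO shift lay below the WT shift in 14 of 14. By limma, 7 of the 14 had an unadjusted p under 0.05 for the difference, all lower, and none passed after adjustment, the smallest adjusted p being 0.875. Across all genes, 2.26% were lower and 3.07% higher at an unadjusted p under 0.05. The other direction was seen in 4 of the 14. Krt36 stood at 7.61 and 14.0 before and at 35.7 and 54.8 after, and Krt35, an early keratin of the shaft, at 329 and 499 and then at 398 and 589, with overlapping groups. The list summed to 2577 and 3819 in untreated DKO and to 922 and 2197 after 5-aza, beside 437 and 559 in untreated WT and 1197 and 739 in WT 5-aza.

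Keratin-associated proteins, the matrix in which the shaft keratins are embedded, were also lower in the DKO 5-aza libraries than in untreated DKO. Of 40 genes on the list, 33 passed the filter, 17 of them shifted down and 0 up. Over all tested genes, 6.18% were shifted down. All 33 had a shift below 0. Members near 0 after 5-aza, such as Krtap21-1, passed only through untreated DKO, which fixed the sign of their shift. Over these 33 the median was -2.17 in DKO and -0.16 in WT. In WT 25 members passed the filter, and members near 0 there could not fall. Krtap3-3 stood at 39.5 and 41.1 in untreated DKO and at 5.18 and 7.77 after 5-aza, 6.23-fold lower, while its WT libraries lay between 4.61 and 7.40 in both tables. Krtap6-5 stood at 41.0 and 59.7 and then at 0 and 2.75, 36.7-fold lower. Krtap21-1 stood at 16.6 and 31.8, from 23 and 39 reads, and then at 0 and 0.418, from 0 and 1 read.

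For the difference of the shifts, 15 of the 35 keratin-associated genes tested had an unadjusted limma p under 0.05, all lower, beside 2.26% lower over all genes. None passed after adjustment, with a smallest adjusted p of 0.473. Members such as Krtap21-1 again passed the filter only through untreated DKO, which fixed the sign of their difference. The one-sided count is therefore in part a result of the filter. The list summed to 1886 and 2657 in untreated DKO and to 443 and 1072 after 5-aza, beside 244 and 367 in untreated WT and 624 and 302 in WT 5-aza. DKO 5-aza replicate 1 thus lay within the WT range, and replicate 2 above every WT library. Many of these genes, the Krtap6 and Krtap19 families above all, are short and nearly identical to one another, so that reads may be split between copies and the value of a single copy is uncertain.

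Regulators of the matrix and shaft did not move as a list in the way of the shaft genes. Of 33 tested, 2 were shifted up and 1 down, beside 0.666% up and 2.55% down over all protein-coding genes tested. The median was 0.35 in DKO and 0.54 in WT (-0.21 in DKO with FPKM as deposited). The forkhead factor Foxe1 stood at 42.1 and 54.0 before and at 257 and 184 after 5-aza, 4.59-fold higher, and Foxq1, a forkhead factor of the hair medulla, at 14.4 and 25.0 and then at 68.6 and 95.2, 4.15-fold higher. Sostdc1, a secreted inhibitor of BMP and Wnt signalling, stood at 504 and 566 and then at 56.9 and 132, 5.66-fold lower. Hoxc13, a homeobox factor that drives hair keratin genes, stood at 254 and 318 and then at 331 and 367. Lef1, a mediator of Wnt signalling, stood at 93.2 and 87.8 and then at 138 and 158, and Msx2, a homeobox factor of the matrix, at 181 and 191 and then at 341 and 325. Hoxc13, Lef1 and Msx2 were present in all 4 DKO libraries, as the label of the cells asks, and none was lower in rescaled values. With FPKM as deposited, Lef1 and Msx2 were still higher after 5-aza, but Hoxc13 was lower. Of the 33 regulators, 21 had a shift above 0 in DKO and 12 below.

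Of 16 shaft genes other than keratins 0 were shifted up and 1 down, the surface protein Lrrc15. The counts in this paragraph stand beside 1.56% up and 6.18% down over all tested genes. Over protein-coding genes the shares were 0.666% up and 2.55% down. Of 41 Wnt genes 0 were shifted up and 1 down (Wnt16), of 28 BMP genes 0 up and 2 down (Sostdc1 and the inhibitor Grem1), of 16 Hedgehog genes 0 up and 1 down (Hhip, a decoy receptor) and of 20 Notch genes 0 up and 1 down (the effector Hey2). Shh, the hedgehog ligand of the matrix, stood at 249 and 291 before and at 229 and 391 after, with overlapping groups. Hhip stood at 388 and 363 and then at 58.3 and 128, and Hey2 at 80.3 and 60.4 and then at 8.09 and 20.7. Sostdc1, Grem1, Hhip and Hey2 are also made by the dermal papilla or fibroblasts, whose markers were lower in the 5-aza libraries. Their part in these values was not tested.

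Basal and outer root sheath genes had 1 member shifted up and 1 down of 25, beside 1.56% up and 6.18% down over all tested genes. Krt75, a keratin of the companion layer, stood at 133 and 189 before and at 1108 and 988 after 5-aza, 6.52-fold higher, and at 152 and 163 and then 693 and 829 in WT. Krt6b, a keratin of activated epidermis, stood at 5.69 and 15.2 and then at 0.342 and 1.34. Krt17, a keratin of the outer root sheath and matrix, stood at 712 and 1023 and then at 2690 and 3907, 3.80-fold higher and just under the threshold. Krt5 and Krt14, the keratin pair of basal cells, were 1.09-fold and 1.54-fold lower after 5-aza.

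Genes of the differentiating epidermis were lower in both genotypes. Krt1, the keratin of the spinous layer, stood at 680 and 1064 in untreated DKO and at 7.03 and 25.5 after 5-aza, 53.6-fold lower. Its partner Krt10 stood at 947 and 1798 and then at 26.2 and 77.3, 26.5-fold lower. Of 25 tested, 5 were shifted down in DKO and 0 up, and 11 of 26 were shifted down in WT. The share shifted down over all tested genes was 6.18% in DKO and 6.18% in WT. The list medians were -0.83 and -1.48. These are markers of cells outside the matrix. Lor, of the outermost living layer, was at 5.80 and 10.4 before and at 16.9 and 17.9 after.

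**Figure D3:**
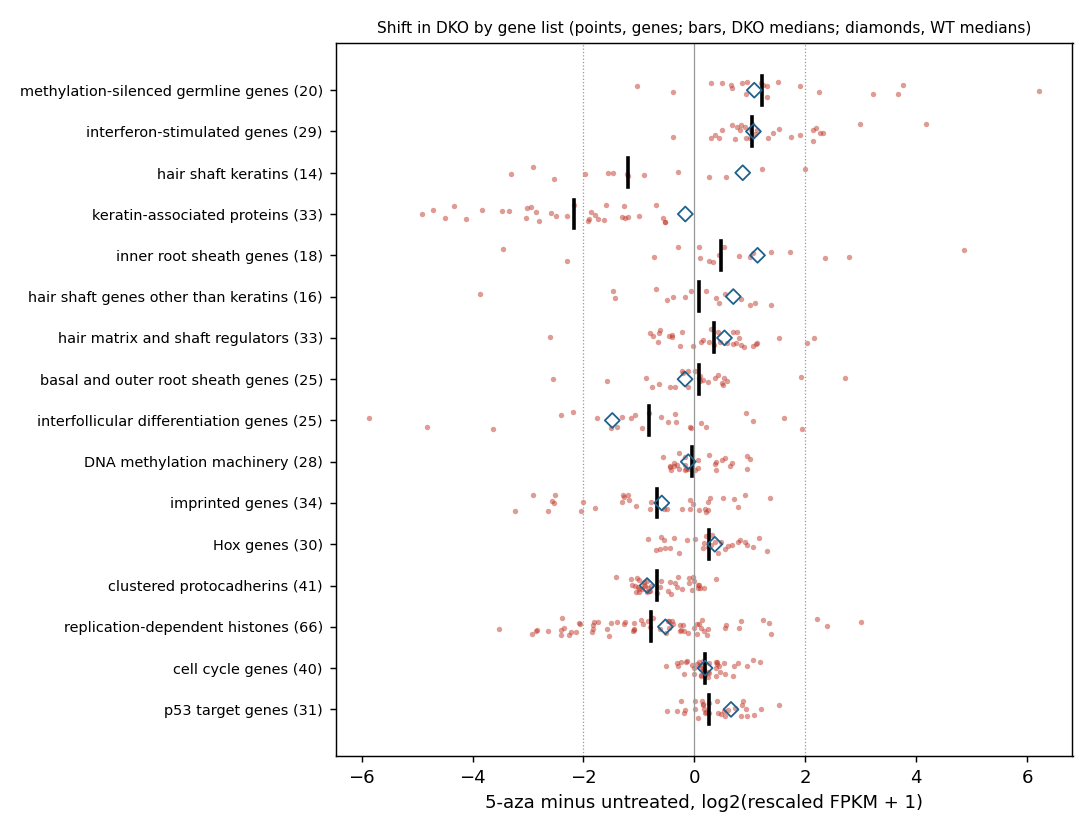
Points are the genes of 16 lists that passed the filter, placed by their shift in DKO (5-aza minus untreated, log2 of rescaled FPKM + 1), with the number tested in brackets, black bars for DKO medians, open diamonds for WT medians and dotted lines at shifts of 2. DKO and WT medians lie furthest apart in the hair shaft keratins (-1.20 and 0.87) and the keratin-associated proteins (-2.17 and -0.16).

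The targeted genes and the methylation machinery showed no large shift. Tet2 stood at 28.3 and 26.3 in untreated DKO and at 23.8 and 24.8 after 5-aza, and at 34.3 to 37.9 and 28.9 to 33.2 in the matching WT libraries. Tet3 stood at 72.0 and 75.6 and then at 98.3 and 95.1 in DKO, below WT in both tables, where it was 119 to 139 and 166 to 191. The deleted exons are not given in the sources used here, so reads from the rest of each gene may remain, and the values check the genotype only by the lower level in all 4 DKO libraries. Dnmt1, the maintenance methyltransferase and main target of 5-aza, stood at 124 and 115 before and 195 and 179 after, 1.56-fold higher. Its cofactor Uhrf1 was 1.41-fold higher, and Dnmt3a and Dnmt3b, the de novo enzymes, were 1.11-fold lower and 1.08-fold higher. These small differences depended on the scaling. With FPKM as deposited, the Dnmt1 libraries of untreated and 5-aza DKO overlapped, and Uhrf1 was not higher after 5-aza. Tet1, which was not targeted, was 1.56-fold lower in DKO.

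Of 28 genes of the methylation machinery 0 were shifted in either direction, with medians of -0.05 in DKO and -0.11 in WT. Over all protein-coding genes tested, 0.666% were shifted up and 2.55% down, so a count of 0 is near the share. At an unadjusted p under 0.05 by limma, 6 of the 28 had a higher shift in DKO than in WT and 0 a lower one, beside the 3.07% of all genes, and none passed after adjustment. Mbd2, which binds methylated DNA, was among them, at 119 and 111 before and at 236 and 225 after in DKO, a difference of 0.67 ± 0.11 (SE, adjusted p = 0.636). Genes of the cell cycle, p53 targets, the integrated stress response and cytidine analogue handling had 0 shifted members of 40, 31, 20 and 15, with medians of 0.18, 0.27, 0.19 and 0.12, each below 0 with FPKM as deposited. Mki67, a marker of dividing cells, was 2.30-fold higher after 5-aza, and the p53 targets Eda2r and Bbc3 were 4.07-fold and 2.43-fold higher, without reaching 4-fold on the log2(value + 1) scale.

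Other groups known for control by methylation had median shifts below the 1.22 of the germline genes. Of 34 imprinted genes, 0 were shifted up and 8 down, with medians of -0.67 in DKO and -0.59 in WT. Counts here stand beside 1.56% up and 6.18% down over all tested genes, and 0.666% and 2.55% over protein-coding genes. A count of 0 shifted up is near these shares. Mest stood at 31.0 and 26.3 before and at 1.30 and 3.33 after 5-aza, 12.4-fold lower, and Ndn at 59.7 and 49.9 and then at 4.84 and 8.25, 8.37-fold lower. Several of the 8, such as Dlk1, are genes of mesenchymal cells, whose other markers were lower as well, and their part was not tested. Of 30 Hox genes and 41 clustered protocadherins 0 were shifted in either direction, with medians of 0.27 and -0.68 in DKO and 0.37 and -0.85 in WT. Of 66 replication-dependent histones 3 were shifted up and 14 down. Their messengers mostly lack a poly(A) tail. Many histone genes are near copies of one another, so single members are uncertain.

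Markers of several other cells of the skin were lower in the DKO 5-aza libraries. Of 18 fibroblast markers, all tested, 13 were shifted down and 0 up, with a median of -2.37 in DKO and -2.25 in WT. The share shifted down was 6.18% over all tested genes and 2.55% over protein-coding genes. The list summed to 16213 and 13525 in untreated DKO and to 1818 and 2773 after 5-aza. Col1a1, a chain of type I collagen, stood at 9223 and 7993 and then at 707 and 1192, 9.07-fold lower. Of 20 dermal papilla markers 4 were shifted down, among them Fgf10, a growth factor, and Corin, a protease, and the list summed to 3381 and 3176 and then to 723 and 1611. Fibroblast RNA thus remained in all 4 libraries, at a much lower level in those given 5-aza.

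Of 15 immune markers tested 5 were shifted down and 0 up, with a median of -1.78 in DKO and -0.85 in WT. The counts given here for each cell type stand beside 1.56% up and 6.18% down over all tested genes. Cd207, which defines Langerhans cells, stood at 9.90 and 10.5 and then at 0.251 and 0.359. Such markers near 0 after 5-aza passed the filter only through untreated DKO, which fixed the sign of their shift. Of 5 erythroid markers 3 were shifted down, and the list summed to 169 and 285 and then to 16.2 and 18.9. Endothelial and mural markers had 2 of 15 shifted down, with sums of 931 and 961 and then 325 and 396. Of 7 skeletal muscle and 4 adipocyte markers 2 and 1 were shifted down, and of 10 markers of Schwann and Merkel cells and 20 genes of dissociation stress 0 were shifted. Ribosomal protein genes, a group present in every cell, had 1 of 88 shifted up and 1 down. Among all members of these lists that the tables share, whether or not they passed the filter, 0 were at 0 in all 4 DKO libraries. Their part in the shifts of other genes was not tested.

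Melanocyte and adipocyte markers were not lower in summed level. The adipocyte list summed to 37.8 and 40.3 before and to 32.3 and 60.1 after 5-aza. Of the 4 adipocyte markers tested, however, 3 had a shift below 0, with a median of -1.25. Cd36, a fatty acid transporter, went from 6.57 and 6.47 to 0.508 and 1.02. The 1 member with a shift above 0 was Fabp4, a fatty acid carrier, which went from 8.79 and 14.2 to 25.7 and 51.6, 3.37-fold higher. Most melanocyte marker RNA of the DKO 5-aza group was in 1 library. The melanocyte list summed to 606 and 601 in untreated DKO, to 507 in DKO 5-aza replicate 1 and to 2583 in replicate 2. Mlana, a melanosome protein, stood at 56.1 and 72.0, then at 116 and 549. Of 15 melanocyte markers 0 were shifted up and 1 down, the endothelin receptor Ednrb, beside 1.56% up and 6.18% down over all tested genes. The same replicate held more RNA of keratin-associated proteins, shaft keratins and dermal papilla than replicate 1, by 1072 to 443, 2197 to 922 and 1611 to 723 in summed level.

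**Figure D4:**
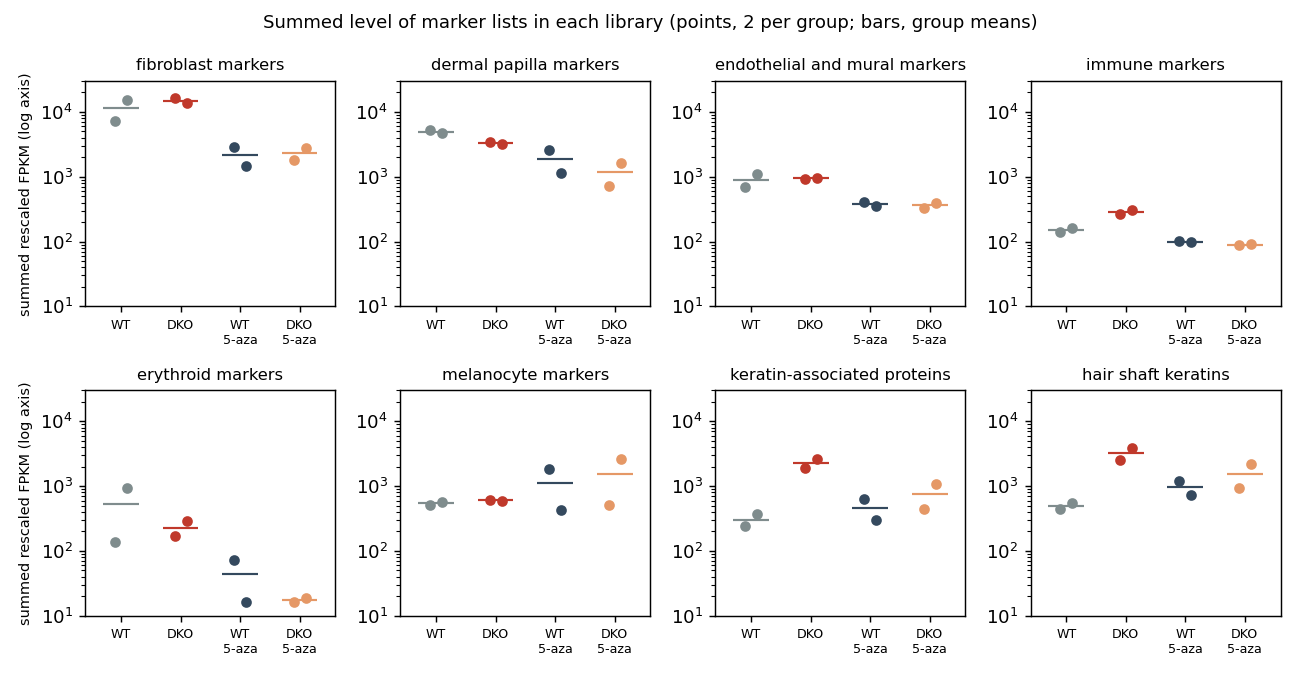
Points are the summed levels of 8 lists in each library, in rescaled FPKM on a log axis, and bars are the means of 2 libraries. Fibroblast, endothelial, immune and erythroid sums are lower in both DKO 5-aza libraries than in both untreated DKO libraries, and melanocyte sums differ between the DKO 5-aza libraries (507 and 2583).

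Xist and Y-linked genes split the untreated libraries of both genotypes by replicate number. Xist, the RNA of the inactive X chromosome, stood at 775 and 12.3 in the untreated DKO libraries and at 69.1 and 58.0 in the 5-aza libraries. Ddx3y, on the Y chromosome, stood at 0.786 and 30.0 and then at 31.3 and 31.7. Replicate 1 of untreated DKO thus had the Xist and replicate 2 the Ddx3y, while both DKO 5-aza libraries held Ddx3y with some Xist. Because of this split, the shift of the 4 Y-linked genes, of which 2 were counted as shifted up, rests on untreated DKO replicate 1.

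Among the largest shifts of protein-coding genes were several that were near 0 in 1 table whatever the genotype. Wdr74 stood at 0 and 0.234 in untreated DKO and at 143 and 156 after 5-aza, with 0 reads in both untreated WT libraries and values of 136 and 139 in WT 5-aza. Hgs, an endosomal sorting gene, stood at 0.113 and 0.0641 and then at 71.6 and 70.1, and Bglap3, of the osteocalcin family, at 0.691 and 0.293 and then at 77.3 and 79.0. In the other direction, Chtf8 stood at 128 and 119 and then at 1.37 and 0.978, and B4gat1 at 92.0 and 94.8 and then at 1.87 and 2.41. Such values change together in WT and DKO, and the part of the tables in them cannot be told apart from that of 5-aza.

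The same holds for whole gene types. Processed pseudogenes, copies of spliced messengers that share their sequence with the parent gene, had 751 of 1904 shifted down (39.4%) with a median of -1.46 in DKO and -1.42 in WT. Micro RNA genes, counted here as genomic loci, had 57 of 433 shifted up (13.2%) and 33 down (7.62%). Of the protein-coding genes tested, 10.4% overlapped a gene listed in 1 table alone, against 5.49% of those shifted up and 10.6% of those shifted down. Hmga1b, which is a near copy of Hmga1, and Stfa3, 1 of a cluster of similar stefins, were among the 8 largest losses and are uncertain for that reason. Stfa3 stood at 1514 and 1965 before and at 11.2 and 19.9 after 5-aza, and Crct1, a gene of the cornified envelope, at 58.0 and 88.9 and then at 0.324 and 2.09.

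**Figure D5:**
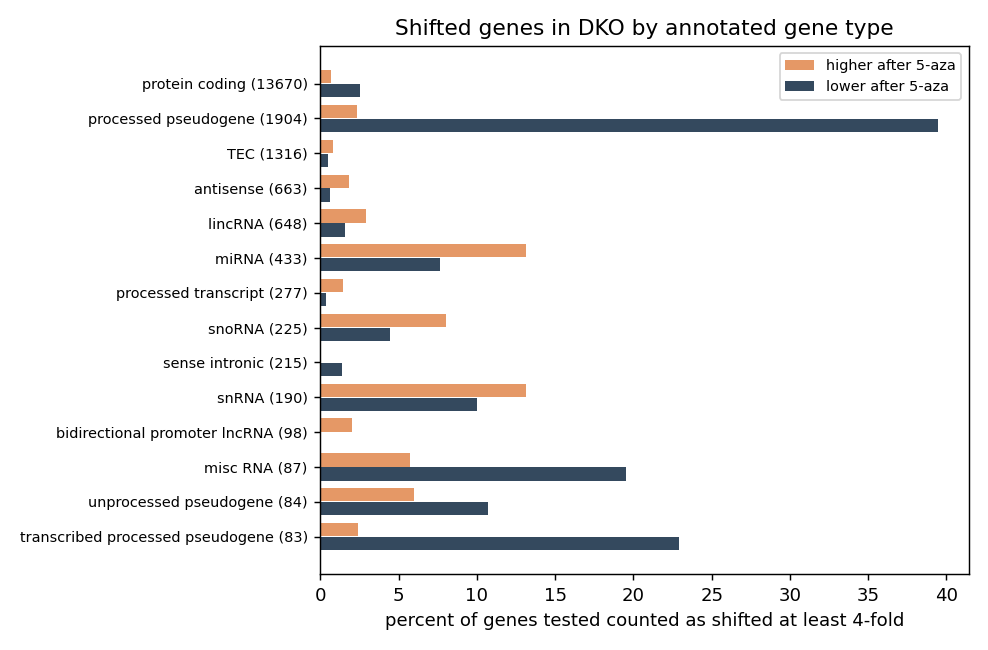
Bars give the percent of tested genes of each annotated type that were shifted at least 4-fold up or down in DKO, with the number tested in brackets, for types with over 80 genes. Processed pseudogenes have the largest share shifted down (39.4%), and protein-coding genes have 0.666% up and 2.55% down.

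The 1 comparison that could be tested is that of the DKO shift with the WT shift, in which a factor that scales both genotypes of a table alike cancels for genes of high value. It asks whether 5-aza altered the difference between the genotypes. By limma with Benjamini-Hochberg adjustment, 0 of 21476 genes passed a threshold of 0.05 in either direction, while 659 (3.07%) were higher and 486 (2.26%) lower at an unadjusted p under 0.05. The median difference was 0.06. With pseudocounts of 0.1 and 5, FPKM as deposited, median-ratio scaling and a filter of 20 reads, Krt28 passed, and with a pseudocount of 0.1 so did 8 other rows, all short noncoding genes or pseudogenes.

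After Krt28, the smallest p among protein-coding genes with a higher shift in DKO belonged to Scel, Dsg3, Mbd2 and Stag3. Scel encodes sciellin, a protein of the cornified envelope. It stood at 14.1 and 14.9 in untreated DKO and at 82.0 and 77.2 after 5-aza, 5.49-fold higher, and at 76.7 and 55.6 and then 69.0 and 88.4 in WT. Its difference was 2.12 ± 0.25 (SE, limma adjusted p = 0.302). Like Krt28, it was low in untreated DKO alone, the other 6 libraries lying between 55.6 and 88.4. Dsg3, a desmosomal cadherin of basal cells, stood at 106 and 117 and then at 147 and 143 in DKO and went from 123 and 133 to 99.2 and 92.0 in WT.

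Among protein-coding genes with a lower shift in DKO, the smallest p belonged to Hist1h4i, H2-Eb1, Krtap3-3, Krtap21-1 and Serpinb3b. Hist1h4i, a gene of histone H4, stood at 869 and 840 before and at 205 and 181 after in DKO and at 556 and 489 and then 293 and 320 in WT, a difference of -1.38 ± 0.14 (SE, limma adjusted p = 0.258). H2-Eb1, a chain of the class II molecules by which immune cells present antigen, stood at 51.7 and 71.9 and then at 28.4 and 23.5 in DKO and at 19.2 and 21.4 and then 40.2 and 39.1 in WT. Its partner gene H2-Aa and Cd74 were lower after 5-aza in both genotypes. Serpinb3b, a protease inhibitor of the epidermis, stood at 19.4 and 18.5 and then at 0 and 0.416 in DKO. It belongs to a cluster of near copies, and its value is uncertain.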

How the data were processed

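RNA was sequenced from hair matrix keratinocytes in 8 libraries of 4 groups. The submitters' processing notes list the builds GRCm38 and mm10 and, without versions, STAR, Trim Galore, DESeq2 and HTSeq. The labels name an mRNA kit and a ribosome-depleted total RNA kit without tying either to a group, and the strand setting is not given in the sources used here. The authors deposited 1 table per treatment. Its library columns hold FPKM, which the authors scaled to the length of each gene and the total of each library. This unit was read from the values, since value times length gives whole reads, and the deposited length column, of unit other, gives the bases behind it. Lengths of the 26200 shared genes were equal in both tables, 25663 had the coordinates of GENCODE M21, and 0 library columns were left unmapped.

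FPKM was rescaled to a sum of 1000000 over the shared genes, and shifts were taken on log2(value + 1). Counting a gene as shifted involves no test. The difference of the shifts was fitted in R 4.3.3 by limma (version 3.58.1, variance trend on), on genes at 1 or more in at least 2 of 8 libraries, two-sided, with a threshold of 0.05 on the Benjamini-Hochberg adjusted p. The fit was tested on simulated data. Members and gene lists were chosen with earlier results of these data known. The genes named are the 8 largest protein-coding rises and falls, up to 4 members of each list, the Tet and Dnmt genes with Uhrf1, the 5 smallest p in each direction, defining markers, and genes stated as chosen after their values were seen. Of the last kind are also Tex101, Oas1a, Oas1b, Oasl2, Padi1, Col1a1 and Dlk1. Promoters came from the supplied RefSeq table, which had entries for 11402 of the tested genes, matched by symbol.

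Alternatives covered the pseudocount, the filter, the scaling, the fold, each library left out, the variance trend and the replicate number as a block. The correlation of replicate differences between WT and DKO, over 11587 genes, was -0.02 in the untreated table. Xist and Y-linked genes nevertheless split that table by replicate number. In the 5-aza table the correlation was -0.53, so that WT replicate 1 tended to deviate like DKO replicate 2. The main fit took no account of this structure. With the crossed pairing as a block, 0 genes passed.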

Additional observations from a re-analysis of the deposited data

Results flagged for a closer look

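Opposite moves were sought only among the named genes and the sums of the lists. In 5 of these results the DKO libraries moved one way from untreated to 5-aza and the WT libraries the opposite way. The libraries did not overlap in either genotype. The share of all tested genes with such a pattern was not counted. None of the differences passed limma after adjustment. Dsg3 had a shift of 0.38 in DKO and -0.41 in WT, a difference of 0.80 (adjusted p = 0.477). Gprc5d, a receptor of the hair cortex, had shifts of -1.48 and 0.60, a difference of -2.08 (adjusted p = 0.901). H2-Eb1 had shifts of -1.21 and 0.93, a difference of -2.14 (adjusted p = 0.282). Krt27 had shifts of -0.73 and 1.26, a difference of -1.99 (adjusted p = 0.820). The summed hair shaft keratins were lower after 5-aza in both DKO libraries and higher in both WT libraries, with a median difference over the 14 keratins of -2.15, and the difference of the sums was not tested.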

How the results depend on the processing

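In DKO, the counts of genes shifted up and down were 651 and 2057 with a pseudocount of 0.1, 94 and 510 with a pseudocount of 5, 20 and 380 with FPKM as deposited, 1244 and 2913 at 2-fold, and 102 and 581 at 8-fold. They were 91 and 349 among protein-coding genes alone. Without processed pseudogenes and genes overlapping a gene of 1 table, 447 were shifted down. Leaving out 1 library at a time gave 239 to 407 up and 817 to 1537 down. In WT the counts were 584 and 2092 with a pseudocount of 0.1, 92 and 498 with a pseudocount of 5, and 18 and 357 with FPKM as deposited. Leaving out 1 library gave 233 to 351 up and 820 to 1521 down, the lowest without WT replicate 1. The other filters and scalings kept both counts within 1.5 times. The 92 named genes counted as shifted kept their direction in 1012 of 1012 checks under these alternatives and were still counted as shifted in 874.

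For the difference of the shifts, limma passed 7 genes higher and 2 lower with a pseudocount of 0.1, and 1 gene higher, Krt28, with each of a pseudocount of 5, FPKM as deposited, median-ratio scaling and a filter of 20 reads. Leaving out 1 library gave 0 higher and 0 to 1 lower, the 1 gene being the processed pseudogene Gm6969 without WT replicate 1. With the replicate block, within each table, over both tables or crossed in the 5-aza table, 0 genes passed. The crossed pairing, the 20-read filter, the protein-coding genes alone and the exclusion of pseudogenes and overlaps were added after seeing the data. The difference in Piwil2, 0.30, was -0.45 with a pseudocount of 5 and -0.55 with FPKM as deposited, and leaving out 1 library gave -0.046 to 0.65. Where a count or sign moved with the pseudocount or scaling, the cause was not tested. With 2 libraries per group, and few reads behind values near 1, only large shifts can be described, and the separate tables limit every shift within a genotype.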
